A study of Mus musculus with 2 samples.

Results

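The mitochondrially encoded transcripts described here are the rows of 9 genes in the deposited tables, chosen by gene symbol, of 36547 genes in all. They are mt-Nd1, mt-Nd2, mt-Nd4 and mt-Nd5 of complex I, mt-Cytb of complex III, mt-Co1, mt-Co2 and mt-Co3 of complex IV, and mt-Atp6 of ATP synthase. The cells came from the testes of C57BL/6 mice aged 12 weeks, and the groups were wild type (WT) and Alkbh5-/- (KO), the homozygous offspring of a cross of heterozygous mice. ALKBH5 is an enzyme that removes the methyl mark N6-methyladenosine from RNA. There was 1 library per genotype. The introduction of the study describes 1 mouse per genotype and its methods 3, so a library may pool animals, and no difference between WT and KO given here has a replicate check. All error ranges are exact 95% intervals that cover counting error only.

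The mitochondrial genome is a small circle of DNA that cells carry in many copies. It encodes ribosomal RNAs, transfer RNAs and a few proteins of the respiratory chain, and all other mitochondrial proteins are made from nuclear genes. Both strands are transcribed into long precursors that are cut at the transfer RNAs, after which each messenger has its own stability. Complexes I, III and IV pump protons across the inner membrane as electrons pass to oxygen, and ATP synthase uses the resulting gradient. In the testis, steroid-producing Leydig cells depend on mitochondria for the first step of steroid synthesis, and germ cells remodel and lose many mitochondria as they form sperm.

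The count of unique molecular identifiers (UMIs, 1 per captured RNA molecule) was 80283221 over 5756 cell barcodes of WT and 82056760 over 7012 of KO, with medians of 10905.5 and 9117.5 per barcode, and 45 barcode sequences occurred in both libraries. Alkbh5 had 607 UMIs in the WT library and 5 in the KO library. Cells were clustered and each cluster was named from marker genes as a class "like" a cell type. All cells of the classes named after spermatogonia, spermatocytes, spermatids and sperm are called germ cells, 5587 in WT and 5268 in KO. Spermatogonia-like cells numbered 190 in WT and 1064 in KO, Leydig-like cells 94 and 1171, Sertoli-like cells 48 and 468, and sperm-like cells 2404 and 1311. The sperm-like class was named from markers of condensing spermatids.

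Of the 9 members, 6 were measured in quantity and 3 were not. In the whole libraries, mt-Co1 had 94203 UMIs in WT and 411387 in KO, mt-Cytb had 62265 and 338747, and mt-Nd1 had 56823 and 299064. The other complex I members were lower, with 23437 and 112423 for mt-Nd2, 29303 and 131769 for mt-Nd4, and 18766 and 88275 for mt-Nd5. In contrast, mt-Co2 had 1 UMI in WT and 18 in KO, mt-Atp6 had 2 and 11, and mt-Co3 had 17 in KO and was not listed in the WT table. These UMIs of mt-Co2, mt-Co3 and mt-Atp6 lay in several classes, with at most 7 of any single gene in any class of either library. Relative to depth, KO Sertoli-like cells were highest among classes with more than 1 of these UMIs, with 7 UMIs of mt-Co3, or 1.50 CPM (0.605 to 3.10), against 0.207 CPM (0.121 to 0.332) over the whole KO library. Their levels are not compared further, and sums over complex IV are sums of mt-Co1 in all but a few UMIs.

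The same 3 genes have an identical copy in the nuclear genome. In the GENCODE vM21 annotation of the build GRCm38, 7 pseudogenes lie next to each other on the minus strand of chromosome 1, at chr1:24611535-24616197, in the order of the mitochondrial genes. A match of the transcript sequences placed bases 1 to 681 of mt-Co2, 684 bases long, in Gm28661 without a mismatch. Bases 1 to 678 of the 681 bases of mt-Atp6 matched Gm10925 without a mismatch, and so did bases 1 to 783 of the 784 bases of mt-Co3 in Gm28437. The last 60 bases of each match are shown because the kit primes on poly A tails, so that reads are expected near the end of a transcript. The stretches lie in the coding exon of each gene at chrM:7634-7693 (mt-Co2), chrM:8545-8604 (mt-Atp6) and chrM:9330-9389 (mt-Co3), plus strand, and their nuclear copies read the same letters at chr1:24614885-24614944, chr1:24613974-24614033 and chr1:24613189-24613248, minus strand.
mt-Co2: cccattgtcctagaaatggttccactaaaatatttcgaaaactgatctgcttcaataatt
mt-Atp6: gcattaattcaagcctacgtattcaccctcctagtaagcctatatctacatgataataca
mt-Co3: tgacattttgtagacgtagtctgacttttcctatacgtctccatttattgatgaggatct

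A read from any of these stretches cannot be placed in the mitochondrial or the nuclear copy by its sequence. The nuclear rows did not hold the reads either. Gm28661 had 38 UMIs in WT and 117 in KO, Gm28437 had 29 and 77, and Gm10925 had 6 and 23. How reads that match several places were counted is not given in the sources used here, and its part in the low counts was not tested. The copy of mt-Nd4l, listed in neither table, was also identical over 294 of its 297 bases.

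Among the measured members, mt-Co1 and mt-Nd4 shared part of their sequence with the same block. Bases 1063 to 1545 of mt-Co1, its last 31.3%, matched Gm29216 with 1 mismatch, A1066T (the base of mt-Co1, its position counted from the first base of the gene, and the base of the copy). From there to the end of mt-Co1, 479 bases were identical. Gm29216 had 36 UMIs in WT and 149 in KO. Bases 1 to 876 of mt-Nd4, 63.6% of the gene, matched Gm28439 without a mismatch, while the end of mt-Nd4 had no such match. The stretch of mt-Co1 at chrM:6390-6449 and of its copy at chr1:24616129-24616188, with the base that differs in capitals, show where the identity starts.
mt-Co1: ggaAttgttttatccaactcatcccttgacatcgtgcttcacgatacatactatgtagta
Gm29216: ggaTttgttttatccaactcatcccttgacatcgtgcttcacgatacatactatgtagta

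The copies of the other measured members differed at more positions. A copy of mt-Cytb on chromosome 4, Gm11410, was 92.9% identical with 81 mismatches, and it had 0 UMIs in both libraries. Its end at chr4:80005072-80005131, plus strand, is set beside mt-Cytb at chrM:15228-15287, with the 5 bases that differ in capitals.
mt-Cytb: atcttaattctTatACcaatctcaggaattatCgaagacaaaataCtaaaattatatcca
Gm11410: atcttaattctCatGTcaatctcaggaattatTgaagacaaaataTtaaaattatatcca

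Copies of mt-Nd2 and mt-Nd5 were at most 96.7% and 95.2% identical and had at most 5 UMIs in a library, and no annotated copy of mt-Nd1 was found. Further copies on chromosome 2 were Gm13340, 97.6% identical to the whole of mt-Co1 with 17 UMIs in WT and 107 in KO, and Gm13341, 95.9% identical to mt-Co2 with 27 and 101. Not every gene with a close copy was near 0. Outside the 9 members, mt-Nd3 matched Gm28438 over 345 bases with 1 mismatch and still had 1674 UMIs in WT and 7195 in KO.

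**Figure D1:**
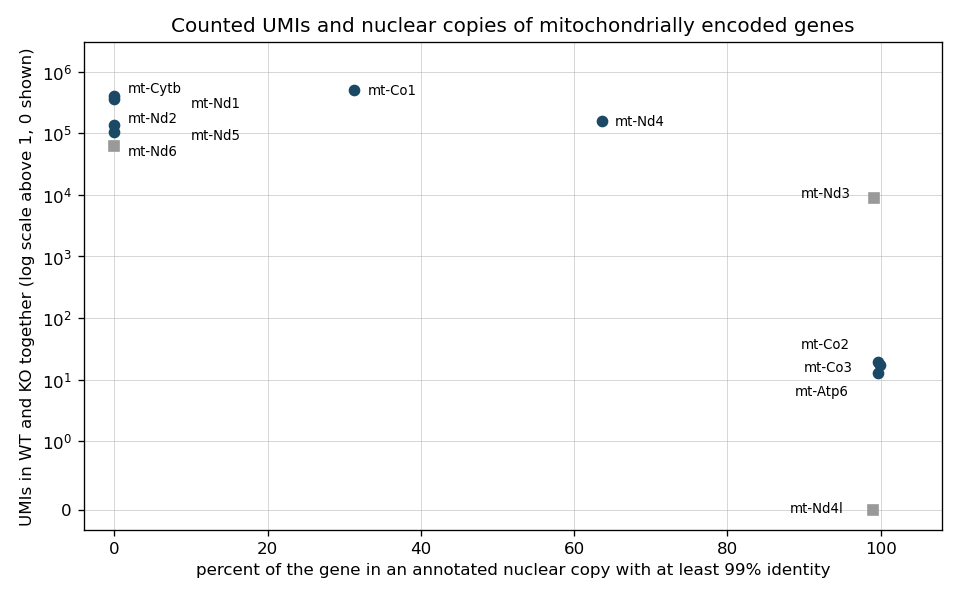
UMIs of both libraries together (vertical axis, log scale above 1) against the percent of each gene that lies in an annotated nuclear copy with at least 99% identity (horizontal axis). Circles are the 9 members and squares mt-Nd3, mt-Nd4l and mt-Nd6. mt-Co2, mt-Co3 and mt-Atp6, covered to 99.6%, 99.9% and 99.6%, sit at 19, 17 and 13 UMIs, while the other 6 members have at least 107041.

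The members' share of all UMIs fell steeply along the germ line in both libraries. It was 2.84% in spermatogonia-like and 3.39% in early spermatocyte-like cells of WT, 0.786% in late spermatocyte-like cells, and 0.266% in early-stage round spermatid-like cells. It then dropped to 0.0293% in mid-stage and 0.0240% in late-stage round spermatid-like cells and to 0.0134% in sperm-like cells. In KO the same classes held 3.31%, 3.85%, 1.00%, 0.292%, 0.0731%, 0.0461% and 0.0379%. The intervals of neighbouring classes in this order did not overlap within either library. The early spermatocyte-like class rests on 35 WT and 121 KO cells.

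Somatic cells were at the top of the order. Leydig-like cells held the highest share in WT, 5.16%, followed by Sertoli-like cells at 4.73%. In KO the order of the 2 was the other way round, with 7.33% in Sertoli-like and 5.38% in Leydig-like cells. Macrophage-like cells were far lower, at 0.809% in WT and 1.68% in KO, and in WT their interval overlapped that of late spermatocyte-like cells. Endothelial-like cells, 24 in KO and 1 in WT, held 1.93% in KO. Seurat used 6 members among the genes for clustering, so differences in level between the classes are given as a description.

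**Figure D2:**
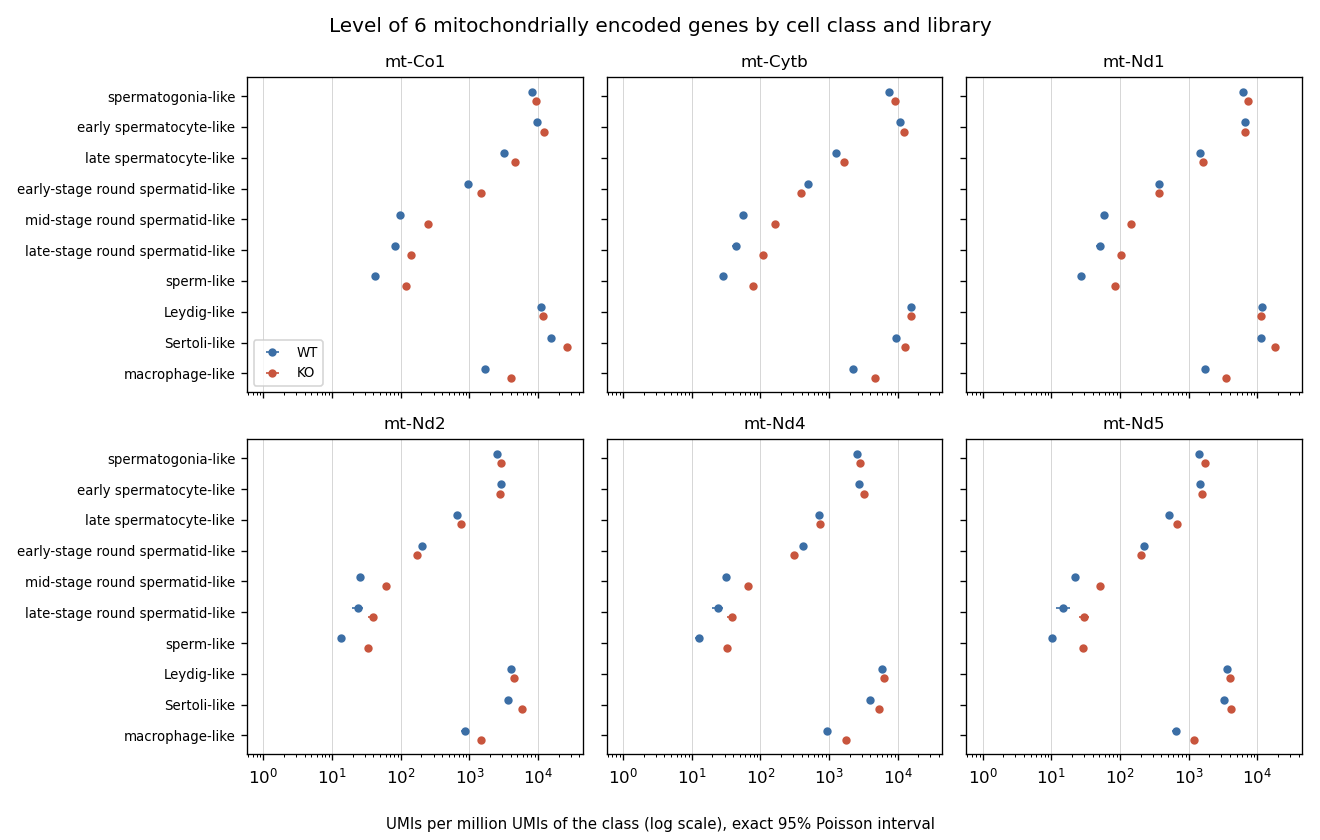
Level of the 6 measured members in UMIs per 1000000 UMIs of the class (horizontal axis, log scale, exact 95% Poisson intervals) in each cell class (vertical axis), WT in blue and KO in red. All 6 genes fall from spermatocytes to sperm-like cells, mt-Co1 in WT from 9544 to 41.7, and the gap between the libraries is widest in mid-stage round spermatid-like and sperm-like cells.

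The 6 genes fell together but not by the same extent. The level of mt-Co1, the catalytic core of cytochrome c oxidase, was 8163 UMIs per 1000000 UMIs of the class (CPM) in WT spermatogonia-like cells, 9544 in early and 3236 in late spermatocyte-like cells, 943 in early-stage, 98.0 in mid-stage and 82.0 in late-stage round spermatid-like cells, and 41.7 in sperm-like cells. The level of mt-Cytb, the cytochrome b subunit of complex III, was 7560, 10680, 1263, 495, 56.2, 44.3 and 28.6 in the same order. The level of mt-Nd4, a proton-pumping subunit of complex I, was 2544, 2771, 713, 424, 32.1, 24.1 and 12.6. From early to late spermatocyte-like cells mt-Cytb thus fell much further than mt-Co1 or mt-Nd4, and mt-Nd4 fell least on entering the spermatid classes.

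Levels of different genes were also set per length. Per kilobase of the gene, mt-Cytb had 13510, mt-Nd1 12100, mt-Co1 7149, mt-Nd4 4239, mt-Nd2 3875 and mt-Nd5 2000 CPM in WT Leydig-like cells. In KO Leydig-like cells the order was the same, from 13700 for mt-Cytb to 2188 for mt-Nd5. In Sertoli-like cells mt-Nd1 led instead per kilobase, at 11860 in WT and 19170 in KO. Next came mt-Co1 at 9969 and 17260 and mt-Cytb at 8368 and 11270. By CPM alone mt-Co1 led there, at 15400 and 26670, ahead of mt-Nd1 at 11350 and 18340. mt-Nd5, the longest member, was lowest per kilobase in all 10 classes with at least 20 cells in both libraries. Reads counted near the end of a transcript do not scale with its length, so dividing by length can shift these orders. The part of mt-Co1 that is identical to a nuclear copy is included in its length.

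The make-up of the members' UMIs differed between classes within a library. mt-Co1 made up 21.1% of them in macrophage-like, 21.4% in Leydig-like, 28.7% in spermatogonia-like, 32.6% in Sertoli-like and 41.2% in late spermatocyte-like cells of WT. mt-Cytb ran the other way, from 31.5% in early to 16.1% in late spermatocyte-like cells of WT. mt-Nd4 ranged from 8.18% in early spermatocyte-like to 16.0% in early-stage round spermatid-like cells of WT. In KO the widest range was again that of mt-Co1, from 22.0% in Leydig-like to 50.7% in early-stage round spermatid-like cells.

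**Figure D3:**
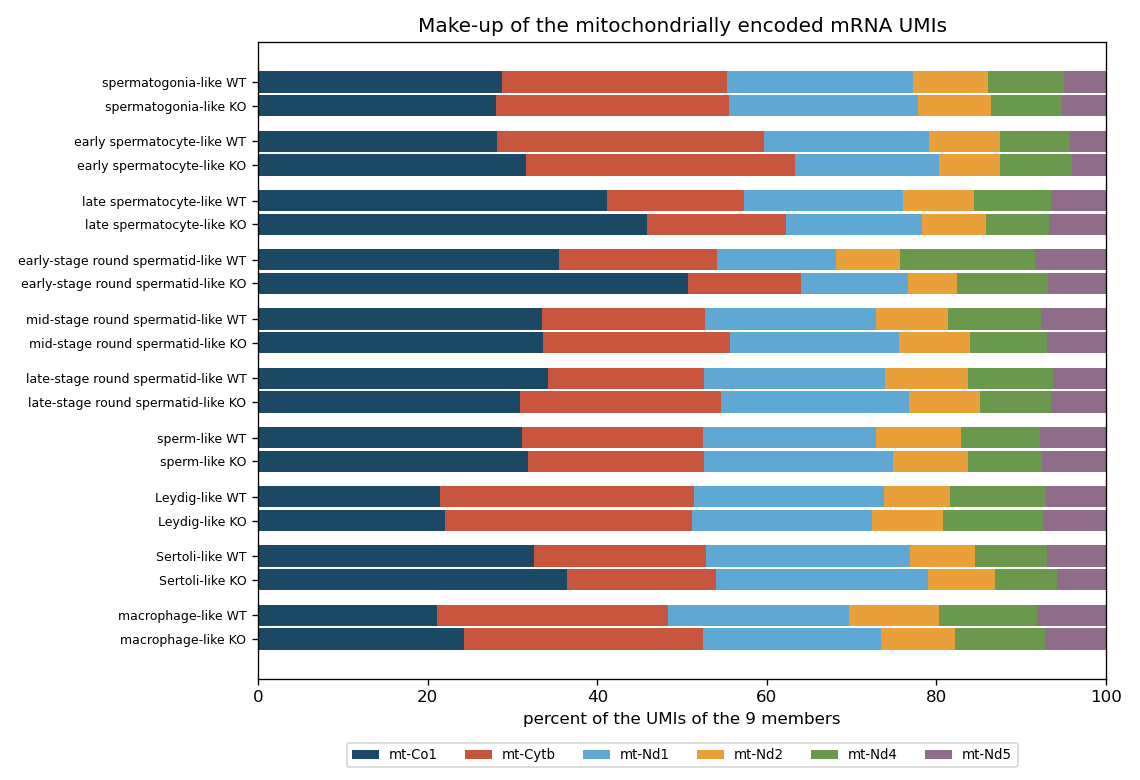
Percent of the UMIs of the 9 members that belongs to each of the 6 measured genes (horizontal axis, stacked to 100) in each cell class of WT and KO (vertical axis). mt-Co1 takes 41.2% in WT and 45.9% in KO late spermatocyte-like cells and rises to 50.7% in KO early-stage round spermatid-like cells, against 35.5% in WT.

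Between the genotypes, the members' share of all germ cell UMIs was 0.264% in WT and 0.713% in KO, 2.71 times higher (interval 2.69 to 2.72). A gene was counted as higher or lower by size alone, when 25% or more of the WT or of the KO cells had a UMI of it and the mean counts per 10000 differed by 0.25 or more on a natural log scale. In pooled germ cells 6 of the 9 members were tested by this size criterion and all 6 were higher in KO, where 11.4% of all genes tested were. Their median log2 ratio of KO to WT was 1.37, against 0.05 over all genes tested. The largest ratio was that of mt-Cytb, with a log2 ratio of 1.71, and the smallest that of mt-Nd4, with 1.15.

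The cell classes make up different parts of the germ cells in the 2 libraries. Spermatogonia-like cells, which are rich in these transcripts, held 48554 of the 206762 members' UMIs of WT germ cells and 276669 of the 471842 of KO germ cells. When each cluster was given equal weight, the share in KO was 1.18 times that in WT, and 0 of the 6 members passed the criterion. The values within single classes follow.

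In spermatogonia-like cells all 6 members were slightly higher in KO. mt-Co1 had 8163 CPM in WT and 9272 in KO, mt-Cytb 7560 and 9079, and mt-Nd1, the core subunit at the quinone site of complex I, 6216 and 7357. The log2 ratios lay between 0.13 for mt-Nd4 (0.09 to 0.18) and 0.28 for mt-Nd5 (0.22 to 0.34). None of the 6 passed the size criterion, which 0.835% of all genes tested passed upward. Their median log2 ratio was 0.21, beside 0.07 over all genes tested.

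Early spermatocyte-like cells gave 0 of 6 members past the criterion, where 4.77% of all genes tested were higher in KO. mt-Co1 was at 9544 CPM in WT and 12150 in KO, a log2 ratio of 0.35 (0.29 to 0.41), whereas mt-Nd1 was at 6595 and 6566 and its interval included 0. In late spermatocyte-like cells 2 of 6 members, mt-Co1 and mt-Cytb, were higher by the criterion, beside 0.786% of all genes tested. mt-Co1 had 3236 CPM in WT and 4596 in KO, a log2 ratio of 0.51 (0.49 to 0.53). mt-Cytb had 1263 and 1644, and mt-Nd4, with 713 and 747, differed least, with a log2 ratio of 0.07 (0.02 to 0.11). The 2 clusters of this class were not alike, with a share in KO 1.05 times that in WT in the cluster led by Nutm2 and 1.33 times in the cluster whose leading genes included Piwil1. In the first of them mt-Co1 had a log2 ratio of 0.33 and mt-Nd5 of 0.24, but mt-Nd1 was lower in KO at -0.45 (-0.50 to -0.40), mt-Nd4 was lower at -0.35 (-0.43 to -0.28), and the intervals of mt-Cytb and mt-Nd2 included 0. In the second all 6 were higher, from 0.17 for mt-Nd4 to 0.57 for mt-Co1. The sums over the class thus join clusters in which mt-Nd1 and mt-Nd4 differed in opposite directions.

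In early-stage round spermatid-like cells too the members moved apart, here in the sum over the class. The level of mt-Co1 was 943 CPM in WT and 1479 in KO, a log2 ratio of 0.65 (0.61 to 0.68). The level of mt-Nd4 was 424 in WT and 311 in KO, a log2 ratio of -0.45 (-0.51 to -0.39), and that of mt-Cytb was 495 and 388, a log2 ratio of -0.35 (-0.41 to -0.30). mt-Nd2, at 201 and 171, and mt-Nd5, at 221 and 201, had log2 ratios of -0.23 and -0.14, and mt-Nd1, at 371 and 367, had an interval that included 0. Of the 6 members tested, mt-Co1 was higher by the criterion, beside 0.958% of all genes tested, and mt-Nd4 was lower, beside 0.695%. By complex, complex IV had a log2 ratio of 0.65, complex I of -0.21 and complex III of -0.35. The members' summed share was 0.266% in WT and 0.292% in KO, but without mt-Co1, mt-Co2, mt-Co3 and mt-Atp6 it was 0.839 times as high in KO as in WT.

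The split between mt-Co1 on one side and mt-Cytb and mt-Nd4 on the other was present in both clusters of the class. In the cluster richer in these transcripts, with a share of 0.469% in WT, the log2 ratio was 0.49 for mt-Co1, -0.52 for mt-Cytb and -0.56 for mt-Nd4. In the other cluster, with a share of 0.135% in WT, it was 0.89 for mt-Co1, -0.12 for mt-Cytb and -0.33 for mt-Nd4. The remaining complex I members did not go one way, since mt-Nd1 had a log2 ratio of -0.25 in the first cluster and 0.42 (0.31 to 0.53) in the second, and the intervals of mt-Nd2 and mt-Nd5 were below 0 in the first and included 0 in the second. Under 8 other settings chosen after the data were seen, mt-Co1 stayed above 0 in 8 of 8, and mt-Cytb and mt-Nd4 stayed below 0 in all 8. Of the other members, mt-Nd1 was above 0 in 5 of the 8, mt-Nd5 in 1 and mt-Nd2 in 0. The settings were other clusterings, a higher gene filter, the removal of doublets, the mean over cells and each cluster alone, as given above. They draw on the same libraries and are not separate checks. For each UMI of mt-Co1 there were 0.450 UMIs of mt-Nd4 in WT (0.435 to 0.464) and 0.210 in KO (0.203 to 0.218). mt-Co1 is also the measured member whose end is shared with a nuclear copy, and whether counting of that end differed between the libraries was not tested.

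**Figure D4:**
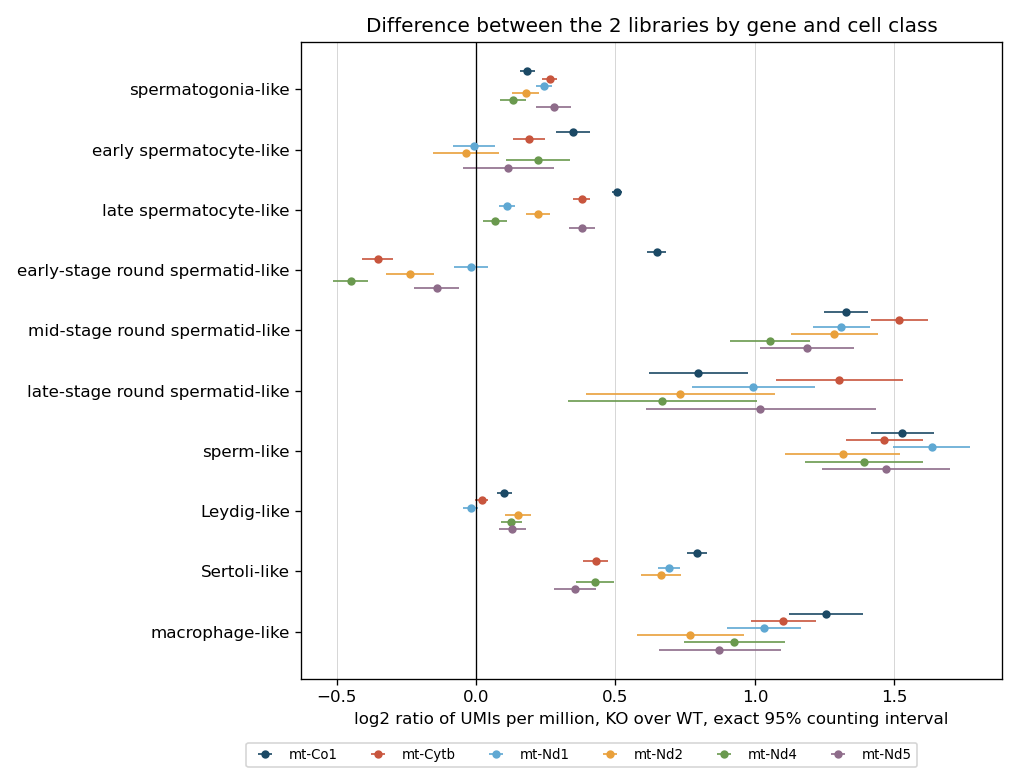
log2 ratio of CPM in KO over WT (horizontal axis, exact 95% counting intervals) for the 6 measured members in each cell class (vertical axis). The members lie at or below 0.28 in Leydig-like and spermatogonia-like cells, split to 0.65 for mt-Co1 and -0.45 for mt-Nd4 in early-stage round spermatid-like cells, and all lie above 1 in mid-stage round spermatid-like and sperm-like cells.

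In mid-stage round spermatid-like cells all 6 measured members had higher levels in KO. mt-Co1 had 98.0 CPM in WT and 246 in KO, a log2 ratio of 1.33, mt-Cytb had 56.2 and 161, a log2 ratio of 1.52, and mt-Nd4 had 32.1 and 66.6, a log2 ratio of 1.05. By the criterion 5 of 9 members were tested and 5 were higher, beside 2.73% of all genes tested. In late-stage round spermatid-like cells mt-Cytb was at 44.3 and 109 CPM and mt-Co1 at 82.0 and 143, and 3 of 3 members tested were higher, beside 3.43% of all genes tested. In late-stage cells all 3 passed the 25% filter through KO alone, and in mid-stage cells 4 of the 5 did, so that being higher was largely fixed by the filter and nothing is read from these counts. The 2 mid-stage clusters had members' shares 2.06 and 3.92 times as high in KO as in WT. The 12 Leydig markers moved with the members in late-stage cells, from 36.1 CPM in WT to 121 in KO, and the 16 Sertoli markers from 25.4 to 101.

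Sperm-like cells had the lowest levels of the germ cell classes, and a share in KO 2.83 times that in WT, beside 2.498 times in mid-stage round spermatid-like cells. mt-Co1 had 1061 UMIs in 2404 WT cells and 1630 in 1311 KO cells, which is 41.7 and 120 CPM. mt-Nd1 had 27.2 and 84.4 CPM, a log2 ratio of 1.63 (1.50 to 1.77), and mt-Cytb had 28.6 and 78.8, a log2 ratio of 1.46. Only these 3 members were tested and all 3 were higher, beside 9.47% of all genes tested. Each of them had a UMI in fewer than 25% of WT cells (21.9% for mt-Co1, 15.4% for mt-Cytb and 14.2% for mt-Nd1) and passed the filter through KO alone, so nothing is read from this count. The median cell had 0 members' UMIs in WT and a members' share of 0.0206% in KO.

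Transcripts that mark Leydig and Sertoli cells moved in the same direction in these cells. The 12 Leydig markers summed to 29.2 CPM in WT sperm-like cells, with 11 of the 12 detected, and to 162 in KO, with 12 detected. That is 0.0571% and 0.217% of their level in Leydig-like cells of the same library. The members at those percentages of their own Leydig-like level would come to 29.5 CPM in WT and 117 in KO, against the 134 and 379 that were measured. The 16 Sertoli markers, of which 13 were detected in WT and 15 in KO, stood at 0.0825% and 0.202% of their Sertoli-like level, which for the members would come to 39.0 and 148. The 20 spermatogonia markers hardly differed, at 0.734% and 0.766% of their spermatogonia-like level, which for the members would come to 208 and 253, more than the level measured in WT. Single markers of that list reached 63.2% in WT and 67.2% in KO. mt-Co1 made up 31.2% and 31.8% of the members' UMIs of sperm-like cells in WT and KO, compared with 21.4% and 22.0% in Leydig-like and 32.6% and 36.4% in Sertoli-like cells. In mid-stage round spermatid-like cells the Leydig marker percentages were 0.184% and 0.407%, which would come to 94.7 and 219 of the 293 and 731 measured. A single Leydig marker reached 14.4% and 18.5% there. The Sertoli markers would come to 50.1 and 204, and the spermatogonia markers to 716 and 952, more than was measured. In late-stage cells the Sertoli marker percentages of 0.204% and 0.341% would come to 96.2 and 250 of 240 and 461. The Leydig markers would come to 36.5 and 86.9 in late-stage cells, and the spermatogonia markers to 357 and 607, again more than was measured. The spermatogonia percentages are thus no measure of the RNA from other cells. In sperm-like cells single Leydig markers reached at most 0.382% in WT and 0.569% in KO, and single Sertoli markers at most 0.511% and 0.436%. Whether the Leydig and Sertoli percentages measure RNA from other cells was not tested. Malat1, a nuclear RNA, had 4.60 CPM in WT and 17.9 in KO sperm-like cells. It had 176 and 198 in mid-stage and 26.0 and 30.2 in late-stage round spermatid-like cells. In WT Malat1 was highest in Leydig-like cells, at 2062 CPM, beside 219 in Sertoli-like and 198 in spermatogonia-like cells. The difference in the members was present at every depth, with shares of 0.0206% in WT and 0.0599% in KO among the sperm-like cells with the fewest UMIs and of 0.00857% and 0.0274% among those with the most, when the cells of each library were split in 3 by depth. The part that RNA from other cells has in these levels was not tested further.

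Leydig-like cells, which hold the enzymes of steroid synthesis, had nearly the same levels in both libraries. mt-Cytb had 15460 CPM in WT and 15680 in KO, a log2 ratio of 0.02 with an interval that included 0, and mt-Nd1 had 11580 and 11430, a log2 ratio of -0.02 (-0.05 to 0.01). mt-Co1, at 11040 and 11850, and the other complex I members had log2 ratios of 0.10 to 0.15. No member passed the criterion, which 2.91% of all genes tested passed upward. The 12 Leydig markers summed to 51110 CPM in WT and 74600 in KO cells of this class. The members' share was 1.04 times as high in KO as in WT, and this ratio fell below 1 at a finer clustering (0.927), without integration (0.974) and with cells thinned to the same depth (0.995). The per-cell share had a median of 5.41% in 94 WT cells and 5.48% in 1171 KO cells, with quartiles of 3.63% and 7.002% in WT and 4.26% and 6.45% in KO.

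Sertoli-like cells, the supporting cells of the germ line, had higher levels in KO for each measured member. mt-Co1 had 15400 CPM in WT and 26670 in KO, a log2 ratio of 0.79 (0.76 to 0.83), and mt-Nd5, with 3288 and 4201, had the smallest log2 ratio at 0.35. By the criterion 5 of 6 members were higher, in a class where 36.9% of all genes tested were. The median log2 ratio of the 6 was 0.55, below the 0.82 of all genes tested. The share was spread widely over the 48 WT cells, with quartiles of 1.43% and 7.79% around a median of 2.97%, while the 468 KO cells had a median of 7.80% and quartiles of 5.65% and 9.59%. The ratio of these medians, 2.63, is larger than the ratio of 1.55 of the summed shares. The 16 Sertoli markers summed to 12490 CPM in WT and 29540 in KO cells of this class. Whether the class is equally rich in Sertoli cells in both libraries was not tested.

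In macrophage-like cells all 6 members were higher by the criterion, beside 10.8% of all genes tested. mt-Co1 had 555 UMIs in 26 WT cells and 3259 in 81 KO cells, or 1705 and 4066 CPM, a log2 ratio of 1.25 (1.12 to 1.39). mt-Nd2 had the smallest log2 ratio, 0.77, with 860 and 1463 CPM. The median log2 ratio of the 6 was 0.98, against 0.06 over all genes tested. The members' share depended on depth in this class, when the cells of each library were split in 3 by their UMIs. In WT it was 2.09% in the 9 cells with the fewest UMIs and 0.286% in the 8 with the most. In KO it was 3.07% and 0.846% in 27 cells each.

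The ribosomal RNAs of the mitochondrial genome, mt-Rnr1 and mt-Rnr2, fell less along the germ line than the messengers. mt-Rnr1 had 4169 CPM in WT spermatogonia-like cells, 3155 in early and 1585 in late spermatocyte-like cells, 1281 in early-stage, 644 in mid-stage and 558 in late-stage round spermatid-like cells, and 612 in sperm-like cells. mt-Rnr2 had 7516 CPM in WT spermatogonia-like cells, 2892 in late spermatocyte-like cells, 2901 in early-stage, 1880 in mid-stage and 1978 in late-stage round spermatid-like cells, and 2906 in sperm-like cells. The 2 ribosomal RNAs together had 0.411 UMIs per member UMI in WT spermatogonia-like cells, 1.58 in early-stage and 8.63 in mid-stage round spermatid-like cells, and 26.3 in sperm-like cells. In WT Leydig-like cells this ratio was 0.320. The genotypes differed most in early-stage round spermatid-like cells, where mt-Rnr1 and mt-Rnr2 had log2 ratios of KO to WT of 1.14 and 1.09 while most messengers had ratios below 0, and in sperm-like cells, where the ratio to the members was 26.3 in WT and 13.9 in KO.

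**Figure D5:**
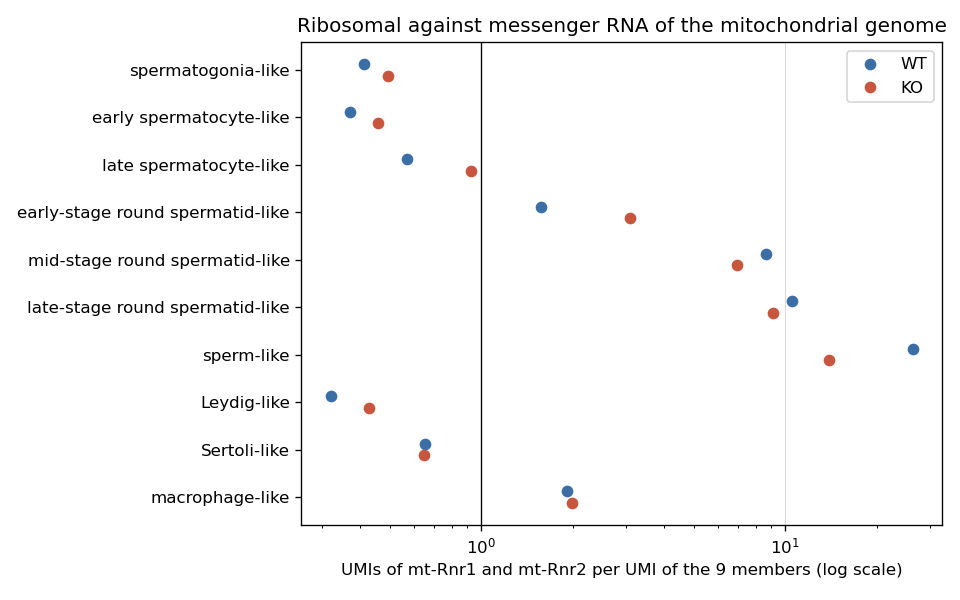
UMIs of mt-Rnr1 and mt-Rnr2 per UMI of the 9 members (horizontal axis, log scale) in each cell class (vertical axis), WT in blue and KO in red. The ratio is below 1 in spermatogonia-like, spermatocyte-like, Leydig-like and Sertoli-like cells and rises to 26.3 in WT and 13.9 in KO sperm-like cells.

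Among the other mitochondrially encoded protein genes, mt-Nd6 is the only one on the minus strand, and it overlaps the end of mt-Nd5 on the opposite strand. It had 9314 UMIs in WT and 53338 in KO. In early-stage round spermatid-like cells it was at 99.97 and 82.7 CPM, a log2 ratio of -0.27 (-0.40 to -0.15). In spermatogonia-like cells it was at 766 and 1093 and higher by the criterion, beside 0.835% of all genes tested. It was also higher by the criterion in pooled germ cells (log2 ratio 1.51, beside 11.4%), Sertoli-like cells (0.48, beside 36.9%) and macrophage-like cells (1.02, beside 10.8%). Whether the counting used strand is not stated, so reads of mt-Nd5 and mt-Nd6 in the shared stretch cannot be told apart. mt-Atp8, which overlaps mt-Atp6, had 1 UMI in KO and was not listed in WT.

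Of 31 nuclear genes for the replication, transcription, processing and decay of mitochondrial RNA, all 31 were in the tables, but few were abundant enough to be tested. In pooled germ cells 5 were tested and 0 passed the criterion in either direction, where 11.4% of all genes tested were higher, and in Leydig-like cells it was also 0 of 5, beside 2.91%. In late spermatocyte-like cells it was 0 of 11, beside 0.786%, and in sperm-like cells 0 of 1, beside 9.47%. Over the listed genes with a UMI in both libraries, most of them below the filter, the median log2 ratio of KO to WT was 0.67 in germ and 0.80 in sperm-like cells, against 0.34 and 0.32 over all genes with a UMI in both. In spermatogonia-like, late spermatocyte-like and Leydig-like cells the medians were 0.19, 0.14 and -0.06, against -0.06, 0.11 and -0.24. In spermatogonia-like cells 1 of 10 was higher, beside 0.835%, namely Rexo2, which degrades short RNA fragments in mitochondria, with 138 CPM in WT and 233 in KO. Tfam, which packages mitochondrial DNA and starts its transcription, was the 1 gene tested in sperm-like cells, at 1239 CPM in WT and 1373 in KO. Unlike the messengers, it was higher there than in spermatogonia-like cells, where it had 174 and 151. UMIs are counted per gene, so they do not show which transcript form of Tfam is present, or where its protein acts in these cells.

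Over the 21 combinations of class and library with at least 20 cells, the summed level of the members followed that of each measured member with Pearson correlations of 0.994 to 0.998 on the scale of log2(CPM + 1), that of mt-Nd3 with 0.961, that of mt-Rnr1 with 0.952 and that of mt-Rnr2 with 0.805. Among 10104 other genes, the 5 most alike were Cox14 (0.987), Zwint (0.981), Slc25a36 (0.978), Mgat2 (0.978) and Atp6v1e1 (0.977). Cox14 helps to assemble cytochrome c oxidase, and its level ranged from 0.708 to 397 CPM. Slc25a36 carries pyrimidine nucleotides into mitochondria, Zwint is a kinetochore protein, Mgat2 acts on glycans in the Golgi and Atp6v1e1 is a subunit of the proton pump of vesicles. These correlations describe points that share libraries and depth, and no test was made of them. The measured members are part of the sum, so high correlations of these members with it were built in. The genes mt-Nd3, mt-Rnr1 and mt-Rnr2 are not part of it.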

How the data were processed

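Single-cell RNA from 1 WT and 1 KO testis library (GEXSCOPE kit) was analysed. According to the methods, the authors took barcode and UMI from read 1, trimmed and aligned read 2 and assigned it to genes with featureCounts. The deposited values are UMI counts per gene and barcode, without normalization. The submitters' processing notes name FastQC 0.11.7, fastp 1, STAR 2.5.3a, featureCounts 1.6.2 and Seurat. Alignment is said to have been to GRCh38, a human build, but the gene symbols are of the mouse. The treatment of multi-mapped reads and of strand is not given in the sources used here.

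Cells with over 500 genes (all of them) were integrated in Seurat 5.3.0 under R 4.3.3 with 2000 features, 20 anchor dimensions, 30 principal components, resolution 0.3 and seed 1. The features included 6 members and mt-Nd6. A marker was detected with a UMI in at least 10% of a cluster's cells and a level at least 2 times that in other cells, and a name needed 3 detected markers. The late-stage round spermatid-like class was a single cluster at this minimum, with 3 of its 8 listed markers detected. Doublets, 244 in WT and 345 in KO by Scrublet (scanpy 1.11.5), were kept. UMIs were summed per class and library in Python 3.11.15 with scipy 1.17.1, with exact Poisson, Clopper-Pearson and conditional intervals at 95%. No test between genotypes was made, because cells are not replicates. The size criterion was tested on simulated data. Copies were found with BLAST 2.17.0 among the transcripts of GENCODE vM21 (at least 85% identity over 100 bases). No genome sequence was used.

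The members, marker lists and gene lists were chosen with earlier results of these data known. Named were the 9 members, other mitochondrially encoded protein genes, copies with at least 100 UMIs in both libraries together, listed nuclear genes past the criterion in germ or Leydig-like cells, Alkbh5 and the 5 most similar genes among those with at least 1000 UMIs. Gm10925, Gm28438, Gm28439, Gm11410, Rexo2, Tfam, mt-Rnr1 and mt-Rnr2 were added after their values were seen. Alternatives were other clusterings, filters, denominators, weights, depths (cells thinned to 5729 UMIs, which left out 362 WT and 914 KO cells) and member sets.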

Additional observations from a re-analysis of the deposited data

Results flagged for a closer look

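In early-stage round spermatid-like cells 4 members were lower in KO, with log2 ratios of -0.35 for mt-Cytb, -0.23 for mt-Nd2, -0.45 for mt-Nd4 and -0.14 for mt-Nd5, and counting intervals below 0, whereas the same genes had intervals above 0 in other classes. In mid-stage round spermatid-like cells their log2 ratios were 1.52, 1.29, 1.05 and 1.19. The difference between the classes was not tested, because each class comes from the same 1 library per genotype.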

How the results depend on the processing

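No paired analysis was possible because there was 1 library per genotype and no result came from a test. The ratio of the members' share, KO over WT, stayed above 1 under all alternatives run in germ, spermatogonia-like, spermatocyte-like, mid-stage and late-stage round spermatid-like, sperm-like, Sertoli-like and macrophage-like cells. For germ cells (2.71) it was 2.77 with totals free of mitochondrially encoded and ribosomal protein genes, 2.69 (2.688) without integration, 2.67 without doublets, 1.18 with equal weight per cluster, 10.97 as a ratio of medians over cells, 3.25 (3.245) at 1 depth, 2.689 without cells over 10% mitochondrially encoded, and 2.79 without mt-Co1, mt-Co2, mt-Co3 and mt-Atp6. For spermatogonia-like cells (1.16) the same kinds of change gave 1.20 (1.195, totals), 1.14 (1.136, resolution 0.8), 1.11 (1.114 without integration, 1.111 without doublets), 1.08 (1.077, medians) and 1.13 (1.125, 1 depth). For sperm-like cells (2.83) it was 2.22 without integration, 2.25 when clustered without mitochondrially encoded genes, 2.504 with over 1000 genes per cell, 3.13 with equal weight per cluster and 2.64 at 1 depth. For mid-stage cells (2.498) it reached 7.91 as a ratio of medians, and for late-stage cells (1.92) 3.44 when clustered without mitochondrially encoded genes. Mid-stage exceeded sperm-like cells at resolution 0.8 (3.45 against 2.83), without doublets (3.02 against 2.85), without integration (2.45 against 2.22), over 1000 genes (2.77 against 2.504) and when clustered without mitochondrially encoded genes (3.12 against 2.25).

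The ratio crossed 1 in 2 classes. For Leydig-like cells (1.04) it was 0.927 at resolution 0.8, 0.974 without integration and 0.995 at 1 depth, and 1.06 (1.059) with the other totals and with clustering without mitochondrially encoded genes, 1.00 (1.003) over 1000 genes, 1.07 without doublets, 1.01 as medians and 1.10 without cells over 10%. For early-stage round spermatid-like cells (1.10) it was 0.839 without the same 4 genes. This set was planned as members without a near-identical copy, but it keeps mt-Nd4, which has one over 63.6% of its length. Equal weight per cluster took the count of members higher in germ cells from 6 to 0. A ratio of CPM of at least 2 as the criterion took the counts from 5 to 0 in Sertoli-like, 6 to 3 in macrophage-like, 3 to 1 in late-stage and 1 to 0 in early-stage round spermatid-like, and 2 to 0 in late spermatocyte-like cells. The log2 ratio of mt-Nd5 in early-stage round spermatid-like cells was 0.0039 in 1 of the 2 clusters alone, a setting chosen after the data were seen. The causes were not tested. Intervals cover counting error only, and a ratio in the 35 WT early spermatocyte-like or 26 WT macrophage-like cells rests on few cells. Values for late-stage cells without integration were not had, because no cluster took that name.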
